A study of Mus musculus with 3 samples.

Results

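Apart from Ms4a3, the 10 genes described here encode proteins of the primary (azurophil) and secondary (specific) granules of myeloid cells. All 10 were taken by name from a list that was chosen with earlier results of these data known. Each was among the 22238 genes listed in each of the 3 libraries. The azurophil group was Elane, Mpo, Prtn3, Ctsg and Ms4a3. The specific group was Camp, Ltf, Ngp, Lcn2 and Chil3. Female C57BL/6J mice of 10 to 12 weeks, wild type (WT) by the sample titles, had been given experimental autoimmune encephalomyelitis (EAE, a model of multiple sclerosis). It was induced with MOG peptide in complete Freund's adjuvant and 250 ng of pertussis toxin at each of 2 injections. Every group shared this immunization and none was unimmunized. At days 14 to 15, 3 populations were sorted: Ly6Chi monocytes of the bone marrow, Ly6Chi monocytes of the spinal cord, and monocyte-derived antigen-presenting cells (APCs) of the spinal cord, which were Ly6Clow/-. All were gated as CD45+ and CD11b+ and as negative for Ly6G, a neutrophil surface protein. The spinal cord gates also required CD64, and the marrow gate, set after enrichment with a monocyte kit, left out CD11c+ cells. They are called marrow monocytes, cord monocytes and APCs from here on. The sorted cells of several mice were combined for sequencing, 13 mice in 2 experiments for the bone marrow and 18 mice in 3 experiments for the spinal cord. With 1 library per population, no test between populations was possible, and every interval here covers counting error only. One label of the APC library names the bone marrow as the source of the cells, whereas its title and tissue label name the spinal cord.

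Granule proteins are made in waves as myeloid progenitors mature. Azurophil granules are filled first, at the promyelocyte stage, and carry myeloperoxidase and the neutrophil serine proteases. Specific granules are filled later, at the myelocyte and metamyelocyte stages, and carry lactoferrin, cathelicidin and lipocalin. The mRNAs of most of these genes are switched off before a cell leaves the marrow, while the proteins persist. C/EBP factors, PU.1 and RUNX1 are among the known regulators of both sets. Monocytes and neutrophils share the granulocyte-monocyte progenitor, which is why azurophil transcripts can also be found in young monocytes. Ms4a3, a membrane protein of such progenitors, was grouped with the azurophil genes by its stage of expression.

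The promoters of 4 members are shown because these genes carry the contrast described below: Elane and Prtn3 were lowest in APCs, whereas Ltf and Ngp were higher in APCs than in the monocytes of the cord. Each sequence is the 250 bases before the RefSeq start site on GRCm38.p6, read 5′ to 3′ on the gene's strand. Capitals mark the letters of 2 searched cores on either strand, GAGGAA for PU.1 and TTGCNNAA for C/EBP. The core TGTGGT for RUNX was searched too, and it had no match in these 4.

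Elane, chr10:79886062-79886311, plus strand: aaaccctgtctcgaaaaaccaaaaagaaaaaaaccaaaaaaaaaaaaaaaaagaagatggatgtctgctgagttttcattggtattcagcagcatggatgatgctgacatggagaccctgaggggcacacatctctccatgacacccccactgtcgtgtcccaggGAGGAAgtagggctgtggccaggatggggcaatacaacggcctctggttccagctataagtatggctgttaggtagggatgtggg
Prtn3, chr10:79879417-79879666, plus strand: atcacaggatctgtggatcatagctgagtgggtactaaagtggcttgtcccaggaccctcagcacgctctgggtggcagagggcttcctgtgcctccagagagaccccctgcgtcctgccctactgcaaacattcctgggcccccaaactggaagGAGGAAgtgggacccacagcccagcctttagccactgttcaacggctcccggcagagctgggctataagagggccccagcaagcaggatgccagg
Ltf, chr9:111019042-111019291, plus strand: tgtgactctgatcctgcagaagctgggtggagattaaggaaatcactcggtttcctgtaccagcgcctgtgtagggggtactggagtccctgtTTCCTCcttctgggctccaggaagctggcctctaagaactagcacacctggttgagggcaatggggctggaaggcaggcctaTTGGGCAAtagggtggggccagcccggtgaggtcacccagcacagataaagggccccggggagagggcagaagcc
Ngp, chr9:110419558-110419807, plus strand: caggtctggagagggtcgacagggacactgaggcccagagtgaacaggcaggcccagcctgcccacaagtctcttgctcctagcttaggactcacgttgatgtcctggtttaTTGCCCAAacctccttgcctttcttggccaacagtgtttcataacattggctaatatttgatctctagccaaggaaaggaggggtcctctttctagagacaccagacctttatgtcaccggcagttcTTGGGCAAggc

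The PU.1 core began 85 bases before the start of Elane and 95 bases before the start of Prtn3. The C/EBP core began 75 bases before the start of Ltf, and 138 and 11 bases before that of Ngp. Ltf also held a PU.1 core, 157 bases before its start. The windows of Camp, Ms4a3 and Chil3 held no match of any searched core. Over all 10 members, the PU.1 core was in 4 of 5 azurophil and 2 of 5 specific windows, and in 23.3% of 32851 RefSeq windows of the same length. The C/EBP core was in 0 of 5 azurophil and 3 of 5 specific windows (Ltf, Ngp and Lcn2), and in 9.56% of all windows. The RUNX core was in the window of Ctsg alone among the members, and in 14.0% of all windows. These are matches of letters, not measured binding.

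Elane and Prtn3 are neighbours on chromosome 10 (GRCm38, GENCODE M21 annotation). Prtn3 spans 79874476 to 79883174 and Elane spans 79886247 to 79888215, 3.07 kb apart on the plus strand. The RefSeq starts used for the printed windows differ from the GENCODE starts. The Prtn3 window lies inside its GENCODE span, and the windows of Elane, Ltf and Ngp run into theirs. Camp, Ngp and Ltf lie within 1.20 Mb on chromosome 9, from 109847379 to 111042767. The other 5 are on 5 different chromosomes, with Mpo on 11, Ctsg on 14, Ms4a3 on 19, Lcn2 on 2 and Chil3 on 3.

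Levels are given as TPM (transcripts per 1e6, a measure corrected for gene length) rescaled to the same sum over the 22238 common genes, with a 95% Wilson interval of the gene's share of reads. The estimated reads summed to 33280643 in marrow monocytes, 27283795 in cord monocytes and 28209589 in APCs. The APC values came from a smaller set of transcripts (22242 genes, against 54432 for both monocyte libraries), so a difference that involves the APCs also compares 2 transcript sets. A gene was called higher or lower where the 98% interval of its log2 ratio of reads (the log2 fold change between 2 libraries) excluded every change under 2-fold, and at least 1 of both libraries held it at over 3 TPM.

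All 10 members were over 3 TPM in marrow monocytes, and all 10 were called lower in cord monocytes. Of the 10072 genes tested in this comparison, 10.7% were called lower and 13.8% higher, or 24.4% in either direction. The azurophil genes summed to 651 TPM in marrow monocytes, 64.9 TPM in cord monocytes and 23.2 TPM in APCs. The specific genes summed to 25911, 9373 and 4195 TPM, of which Chil3 made up most, and without Chil3 to 1323, 184 and 292 TPM. In bulk RNA, fewer cells with a transcript and less transcript per cell cannot be told apart.

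**Figure D1:**
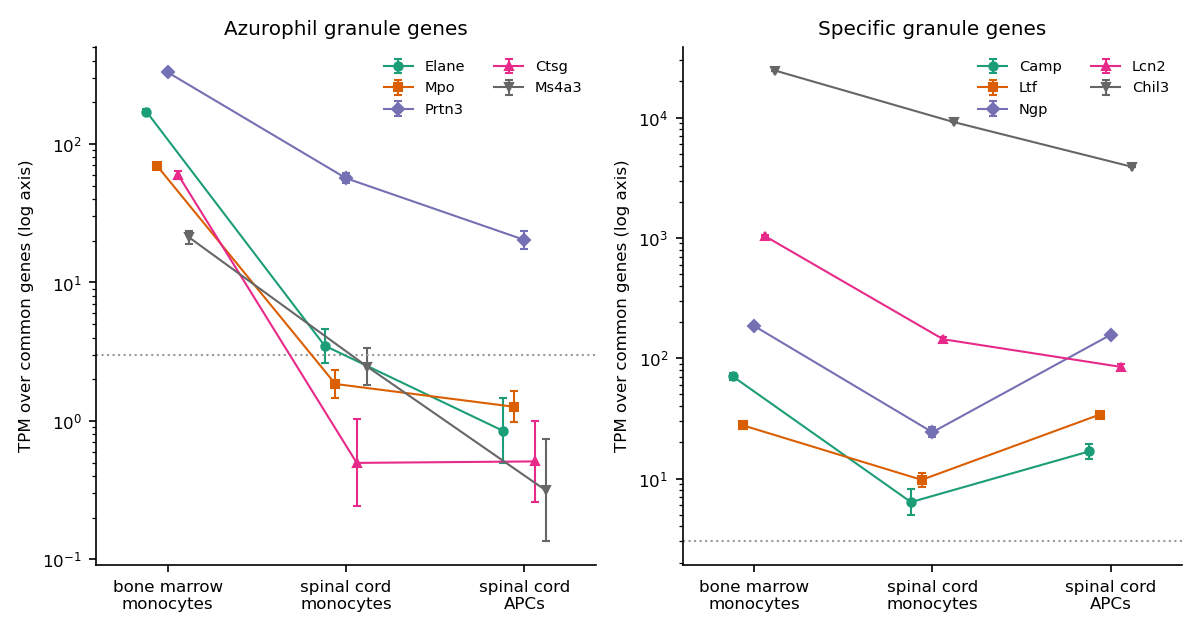
TPM of the 5 azurophil (left) and 5 specific (right) granule genes in the 3 libraries, on log axes that differ between the panels. Points are single libraries, bars are 95% Wilson intervals (counting error only) and the dotted line marks 3 TPM. All 10 genes drop from the first library to the second, and Camp, Ltf and Ngp are higher again in APCs, where Ngp reaches 157 TPM.

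Elane encodes neutrophil elastase. It stood at 172 TPM in marrow monocytes (95% interval 165 to 178), 3.50 TPM in cord monocytes (2.64 to 4.64) and 0.849 TPM in APCs (0.496 to 1.45). The 3 intervals did not overlap, and the level was highest in the bone marrow and lowest in APCs. In cord against marrow monocytes Elane had a log2 ratio of -5.29 (98% interval -5.81 to -4.83), 39.2 times lower. From cord monocytes to APCs it was -1.99 (98% interval -3.09 to -1.02), resting on 48 and 13 reads. This second call ended with total reads as the scaling (-1.94), with reads divided by effective length (-1.91), with a TPM threshold of 4, and where a spread between libraries was assumed.

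Prtn3, proteinase 3, was the most abundant azurophil member in every library. It had 329 TPM (95% interval 319.9 to 339) in marrow monocytes, 56.6 TPM (52.2 to 61.4) in cord monocytes and 20.3 TPM (17.4 to 23.7) in APCs. It fell in both steps, by 2.42 and then by 2.03 on the log2 scale. The ratio of Prtn3 to Elane TPM was 1.92 in marrow monocytes, 16.2 in cord monocytes and 23.9 in APCs. The log2 ratios of reads of these neighbouring genes differed in the first step (-2.42 and -5.29) and were close in the second (-2.03 and -1.99), where Elane had 13 reads in APCs. The effective length of Prtn3 was 622, 534 and 378 bases in the same order. On reads divided by effective length the second step was -1.39 for Prtn3 and -1.91 for Elane on the log2 scale, less close than on reads.

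Mpo, myeloperoxidase, makes hypochlorous acid from hydrogen peroxide. Its level was 69.6 TPM in marrow monocytes (2981 reads), 1.85 TPM in cord monocytes (66 reads) and 1.27 TPM in APCs (58 reads). The bone marrow value stood apart, and the intervals of both spinal cord values overlapped. The log2 ratio of Mpo reached -5.00 (98% interval -5.44 to -4.60) in the first step, against -0.34 (-0.95 to 0.26) in the second.

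Ctsg, cathepsin G, had the largest change of the members in the first step. It went from 929 reads in marrow monocytes (59.5 TPM) to 7 in cord monocytes (0.498 TPM) and 8 in APCs (0.510 TPM). Its log2 ratio was -6.44 (98% interval -7.84 to -5.37), with 5 of the 10072 tested genes lower still. Between the spinal cord populations, the interval of -1.66 to 1.74 was too wide to show a 2-fold difference in either direction.

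Ms4a3 was the least abundant azurophil member in the bone marrow, at 21.2 TPM (95% interval 19.0 to 23.5). It had 2.46 TPM in cord monocytes (1.81 to 3.34) and 0.315 TPM in APCs (0.135 to 0.739), from 336, 41 and 5 reads. The first step was called, with a log2 ratio of -2.53 (98% interval -3.11 to -2.01). The second, -3.03 (98% interval -4.77 to -1.70), lay beyond a 2-fold change, and was not called because neither library was over 3 TPM.

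Ngp, neutrophilic granule protein, is related to the cathelicidins. It stood at 186 TPM in marrow monocytes (95% interval 180.0 to 191.8), 24.3 TPM in cord monocytes (22.1 to 26.6) and 157 TPM in APCs (151 to 162). The level in APCs was nearer to that of the bone marrow, though below it on the TPM scale, and cord monocytes were lowest. Its log2 ratio of -2.62 (98% interval -2.79 to -2.45) in the first step was followed by 2.68 (2.51 to 2.85), and both were called. These 2 steps share the spinal cord monocyte library, so they are not independent. Set directly against marrow monocytes, APCs had a log2 ratio of 0.06 (98% interval -0.02 to 0.14), which was -0.08 with total reads as the scaling. By rank of TPM among the common genes, Ngp was gene 788 in marrow monocytes, 4404 in cord monocytes and 805 in APCs.

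Ltf, lactoferrin, binds iron. It had 27.6 TPM (95% interval 26.05 to 29.3) in marrow monocytes, 9.76 TPM (8.59 to 11.1) in cord monocytes and 34.1 TPM (32.3 to 35.9) in APCs. The 3 intervals did not overlap, and the APC level was the highest. Ltf fell by 1.76 on the log2 scale in the first step and rose by 2.43 (98% interval 2.20 to 2.67) in the second. Its effective length was 1881, 1238 and 1985 bases, and on reads divided by effective length these log2 ratios were -1.26 and 1.88. In APCs against marrow monocytes it was 0.67 (98% interval 0.54 to 0.81), not called.

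Camp, the cathelicidin precursor of an antimicrobial peptide, had 70.8 TPM in marrow monocytes (95% interval 65.9 to 76.0), 6.37 TPM in cord monocytes (4.95 to 8.20) and 16.8 TPM in APCs (14.5 to 19.5). Its APC level lay between the other two. The log2 ratio was -3.16 (98% interval -3.63 to -2.74) in the first step. From cord monocytes to APCs it was 1.41 (98% interval 0.92 to 1.92), which did not pass the call because the lower bound was within a 2-fold change. APCs were called lower than marrow monocytes, with -1.75 (98% interval -2.04 to -1.48). Camp, Ltf and Ngp summed to 284, 40.4 and 208 TPM.

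Camp, Ltf and Ngp did not keep a fixed proportion. The ratio of Camp to Ngp TPM was 0.381 in marrow monocytes, 0.262 in cord monocytes and 0.107 in APCs. That of Ltf to Ngp was 0.149, 0.402 and 0.217. Between Camp and Ltf on chromosome 9 lie 28 other common genes, of which 12 passed the TPM filter in APCs against cord monocytes. Their median log2 ratio was 0.03, and 0 of the 12 were called, a count near the 3.63% called in either direction among all 9734 genes tested. The nearest coding gene above Ltf, Ccrl2, had 9.82, 1091 and 926 TPM, an order of levels unlike that of Ltf.

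Lcn2, lipocalin 2, captures bacterial siderophores. It had 1039 TPM in marrow monocytes (95% interval 1022 to 1055), 144 TPM in cord monocytes (137 to 151) and 84.7 TPM in APCs (80.0 to 89.7). Each population was below the one before it. The first step was called at -2.55 (98% interval -2.63 to -2.47) on the log2 scale. The second, at -0.76 (98% interval -0.89 to -0.63), was under a 2-fold change. The ratio of Lcn2 to Ngp was 5.59 and 5.93 in bone marrow and cord monocytes, and 0.540 in APCs.

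Chil3 encodes a chitinase-like lectin that lacks chitinase activity and is made by monocytes and macrophages as well as neutrophils. It was the second most abundant gene of marrow monocytes, at 24589 TPM or 2.46% of the total, after Lyz2. It had 9189 TPM in cord monocytes (rank 6) and 3902 TPM in APCs (rank 28). It was called lower in both steps, at -1.10 (98% interval -1.10 to -1.09) and -1.26 (98% interval -1.27 to -1.25). Neither call held once libraries were assumed to vary with a coefficient of variation of 0.2. Chil3 has a close paralog, Chil4, 33.9 kb away, between which reads can be split, and its value is uncertain to that extent. Chil4 was listed with 172, 42 and 12 reads, against 671127, 224730 and 104767 for Chil3.

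**Figure D2:**
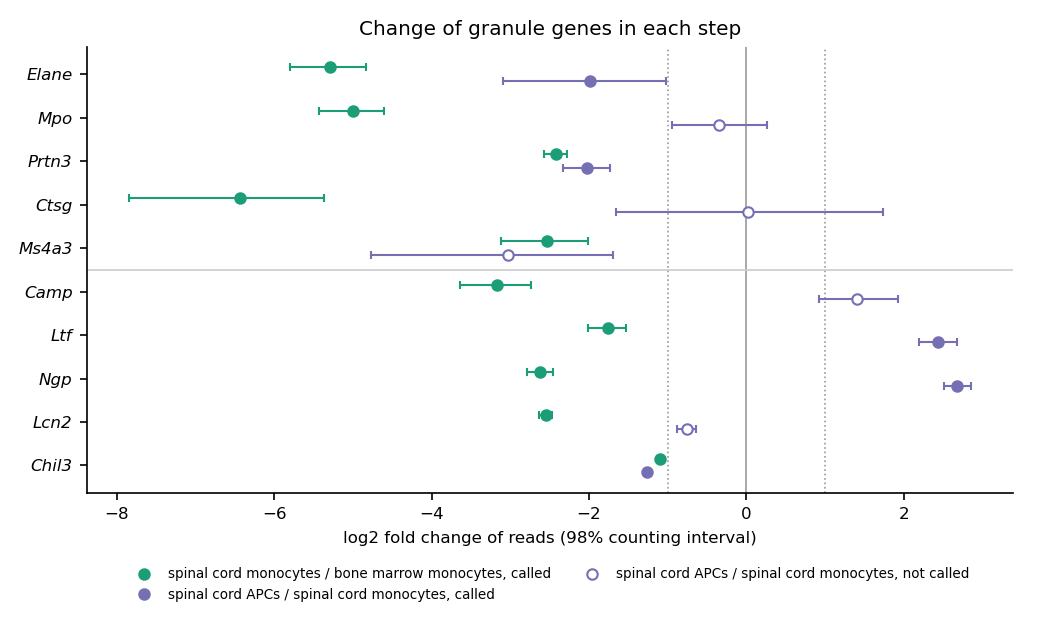
Log2 ratio of reads of each member from marrow to cord monocytes and from them to APCs, with 98% counting intervals. Filled points were called, open points were not, and dotted lines mark a 2-fold change. All 10 first steps are negative, while in the second step Ltf and Ngp are called higher and Elane, Prtn3 and Chil3 lower.

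In APCs against cord monocytes, 7 of the 10 members passed the TPM filter, and Mpo, Ctsg and Ms4a3 did not. Of all 10, 2 were called higher (Ltf and Ngp) and 3 lower (Elane, Prtn3 and Chil3). Among the 9734 genes tested, 1.93% were called higher and 1.70% lower, or 3.63% in either direction. Only 52 of those genes had a larger log2 ratio than Ngp, and 65 than Ltf. At the other end, 42 were below Prtn3 and 44 below Elane. The median log2 ratio was -1.99 over the 5 azurophil members, and -2.01 over the 2 that passed the filter. Over the 5 specific members it was 1.41, the value of Camp, with Lcn2 (-0.76) and Chil3 (-1.26) below 0. Over all genes tested it was -0.04. Where libraries were assumed to vary with a coefficient of 0.4, none of these 5 calls held.

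**Figure D3:**
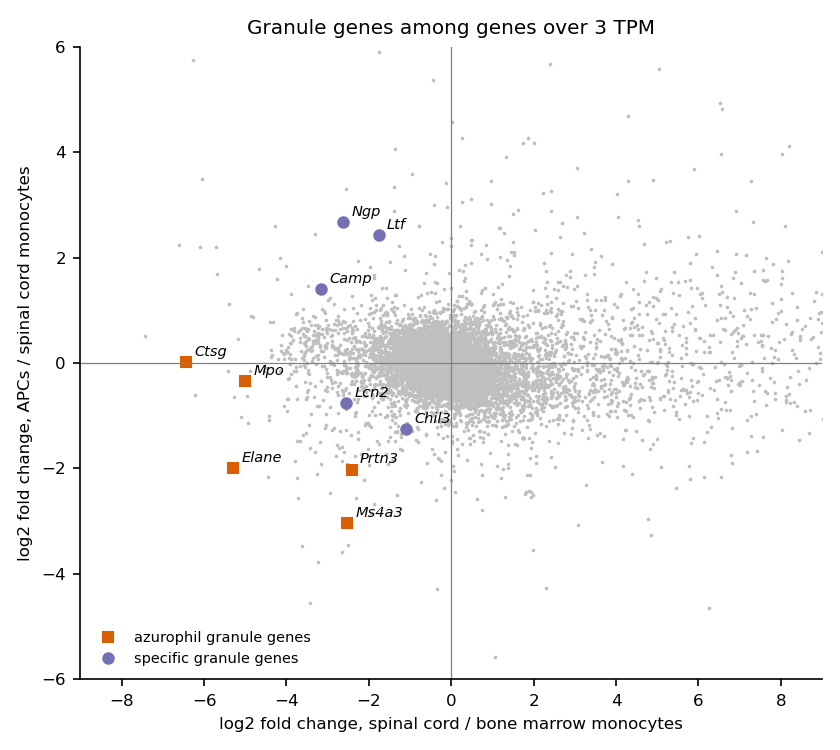
Log2 ratio from marrow to cord monocytes (horizontal) against that from cord monocytes to APCs (vertical) for 10307 genes over 3 TPM in at least 1 library, in grey, with the members in colour. The axes share the spinal cord monocyte library, and 61 genes lie outside the range drawn. All members lie left of 0, with Camp, Ltf and Ngp well above 0 on the vertical axis and Ms4a3, Prtn3, Elane and Chil3 the furthest below it.

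In APCs against marrow monocytes, 8 of the 10 members were called lower and 0 higher, where 11.8% of the 10190 genes tested were called lower and 25.8% in either direction. The 5 azurophil log2 ratios ran from -7.28 for Elane to -4.44 for Prtn3, and only 2 of the genes tested were below Elane. Of the specific members, Lcn2 (-3.31), Chil3 (-2.35) and Camp (-1.75) were called, and Ltf and Ngp were not. The median over all genes tested was -0.17.

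Of 9 further azurophil granule genes, 7 passed the filter in the first step, and 2 were called higher and 1 lower. These counts and those of the short lists that follow stand against 13.8% called higher and 10.7% lower over all genes in the first step, and 1.93% and 1.70% in the second. Fcnb, ficolin B, fell from 70.6 to 3.72 TPM in the first step, a log2 ratio of -3.97, and had 2.19 TPM in APCs. Lyz2, lysozyme, had 34515, 14312 and 10443 TPM, and its first step of -0.95 was not called. Ctsc, the protease that activates the granule serine proteases, had 1220, 1853 and 1942 TPM, called in neither step. Srgn, the proteoglycan core that packs proteases into granules, rose from 394 to 4691 TPM. Cd63, a tetraspanin of azurophil granules and lysosomes, rose in both steps, from 5.19 to 126 and then 275 TPM. Prss57, a further serine protease, had 50, 1 and 1 reads. Bpi had 0 reads in all 3 libraries.

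Of 13 further specific and gelatinase granule genes, 10 passed the filter in the first step, with 4 called lower and 3 higher. The 4 called lower were Mmp8 (neutrophil collagenase, 707 to 119 TPM), Hp (haptoglobin, 2148 to 589 TPM), Pglyrp1 (a peptidoglycan-binding protein, 92.6 to 17.2 TPM) and Cd177 (a neutrophil surface protein, 254 to 32.5 TPM). The 3 called higher were Adam8, Mmp9 and Chil1, with log2 ratios of 4.14, 1.85 and 2.83. In the second step, 2 were called lower and 1 higher. Cd177 fell again, to 9.03 TPM, and Lrg1 fell from 47.2 to 16.4 TPM. Mmp25, a membrane-bound metalloproteinase of neutrophils, rose from 4.14 to 17.7 TPM. Mmp8, with a log2 ratio of 0.18, and Hp, at the 2-fold limit with a 98% interval of -1.05 to -0.95, were not called. Olfm4 and Itgb2l stayed under 3 TPM in all 3 libraries, with 4 and 15 reads, and 14 and 58 reads, in cord monocytes and APCs.

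Among 9 inhibitors of granule and lysosomal proteases, Serpinb1a, which blocks elastase, proteinase 3 and cathepsin G, fell too, from 91.4 to 4.28 TPM (log2 ratio -3.89) and had 4.43 TPM in APCs. Cstb, an inhibitor of cysteine cathepsins, rose from 311 to 1548 TPM. Cst7 and Stfa2l1 were also called higher, so that 3 were called higher and 1 lower in this step. Slpi, which inhibits elastase and cathepsin G, had 279 and 243 TPM in the 2 monocyte libraries and fell to 59.0 TPM in APCs (log2 ratio -1.95). Cst7 rose again in APCs, to 62.7 TPM. Stfa2, a stefin, had 0, 1 and 33 reads, and its second step was called at 4.17 (98% interval 2.08 to 7.70). The stefin A genes are near-identical copies, so their reads are uncertain.

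Of 10 regulators of granule genes, 9 passed the filter from marrow to cord monocytes, with 3 called lower and 3 higher. In the second step 8 passed and 0 were called, near the 3.63% over all genes. Myb, a progenitor factor, fell from 8.99 to 0.380 TPM. Cebpe, needed for specific granules, fell from 14.4 to 3.96 TPM and had 1.40 TPM in APCs. Cebpd fell from 26.2 to 8.97 TPM. Cebpb rose from 252 to 949 TPM, Runx1 from 32.05 to 114 TPM and Klf4 from 216 to 358 TPM. Spi1, which encodes PU.1, had 583, 448 and 446 TPM, and Cebpa 144, 124 and 101 TPM. In the second step Cebpe had a log2 ratio of -1.49 (98% interval -2.25 to -0.78), from 74 and 29 reads, and was not called. The part of any regulator in the members' levels was not tested.

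In the chitinase-like family, Chil1 went from 1.02 to 6.76 TPM, the opposite direction to Chil3, and had 7.57 TPM in APCs. Chil6 and Chia1 had 0 reads in every library, and Chit1 and Chil5 had at most 4.

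Markers of the cells that could carry granule transcripts into these sorts were listed beside the members. The 12 neutrophil markers summed to 7127 TPM in marrow monocytes, 1557 TPM in cord monocytes and 1340 TPM in APCs, with 5, 9 and 9 of them over 3 TPM. S100a8 and S100a9, which monocytes also express, made up most of this and fell in the first step, by 2.44 and 2.42 on the log2 scale. Ly6g, which defines neutrophils and was excluded by the sort, had 38, 22 and 24 reads (2.57, 1.71 and 1.64 TPM). The second-step log2 ratio of Ly6g was -0.03 (98% interval -1.01 to 0.95), with both libraries under the limit of 3 TPM. Retnlg, a resistin-like gene of mature neutrophils, rose in both steps, from 1.77 to 16.7 and then 57.9 TPM. Of the 9 markers that passed the filter in the second step, 1 was called higher (Retnlg) and 0 lower. Their median log2 ratio was -0.15. Csf3r, Fpr1 and Fpr2 had second-step log2 ratios of -0.22, -0.15 and -0.72, and S100a9 had 0.40, none of them called. Cxcr2, Asprv1 and G0s2 were called higher in the first step, to 9.10, 7.23 and 6.49 TPM, and were at 6.75, 7.10 and 5.86 TPM in APCs. Mrgpra2a was the only one of the 12 with 0 reads in a library, the bone marrow. The part of neutrophil RNA in the levels of the 10 members was not tested.

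**Figure D4:**
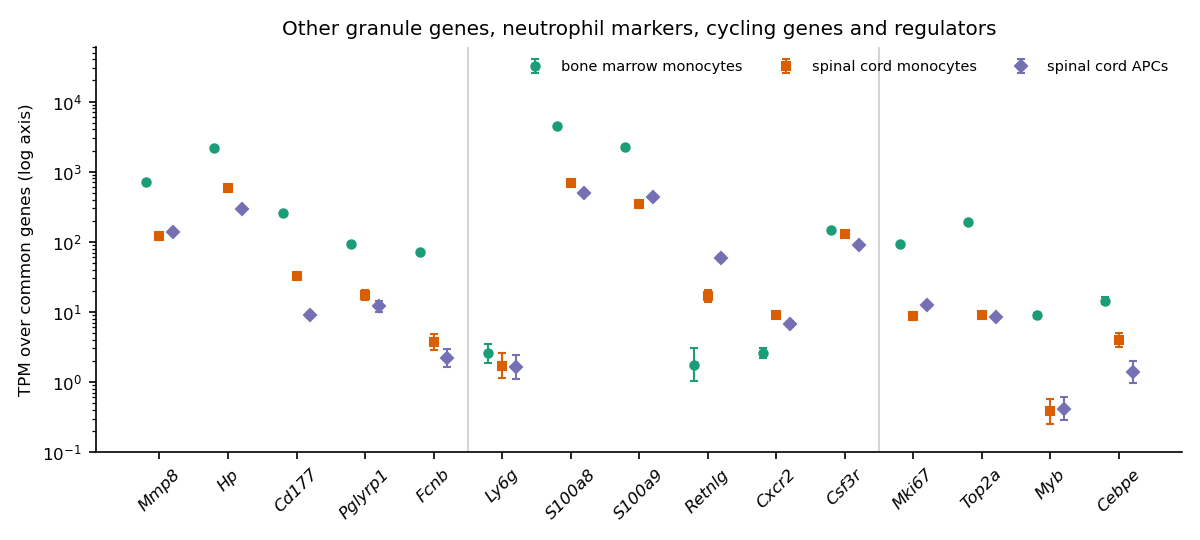
TPM (log axis) in the 3 libraries of 5 other granule genes (left), 6 neutrophil markers (middle) and 2 cycling genes with 2 regulators (right), with 95% Wilson intervals. Most of the genes drawn are highest in marrow monocytes, whereas Retnlg is highest in APCs, at 57.9 TPM, and Ly6g is below 3 TPM throughout. They were picked from longer lists with first-step calls in both directions. These were 2 higher and 1 lower for other azurophil genes, and 3 and 4 for other specific and gelatinase genes. For regulators they were 3 and 3, and for neutrophil markers 4 and 2.

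The 10 cycling genes moved with the members in the first step. They summed to 1174, 262 and 223 TPM, and 9 of 10 were called lower from marrow to cord monocytes, Top2a from 190 to 8.92 TPM. In the second step 0 of 10 were called, near the 3.63% over all genes. The 7 progenitor markers did not share one direction: Flt3 fell from 37.8 to 3.65 TPM, whereas Cd34 and Sox4 rose, and Kit rose in APCs to 6.92 TPM. Of 12 eosinophil, basophil and mast cell markers, Ear2 had 275, 44.2 and 41.2 TPM, and no other was over 3 TPM in marrow monocytes. Siglecf and Ear6 were over 3 TPM in APCs, at 7.83 and 3.26 TPM. The 8 monocyte markers were all over 3 TPM in every library. The 4 microglia markers summed to 12.03, 80.4 and 210 TPM, the 5 T cell markers to 0.698, 38.9 and 56.8 TPM and the 4 B cell markers to 8.69, 3.52 and 3.77 TPM. The part of any of these cells in the members' levels was not tested.

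The genes whose 2 log2 ratios lay nearest to those of Elane, among the 10297 genes over 3 TPM in at least 1 library once the 10 members were left out, were Depdc1b (distance 0.855 on the log2 scale), Rgs18 (0.922), Grb14 (0.9901), Gria3 and Hal. Rgs18 had 57.3, 1.47 and 0.673 TPM in the 3 libraries. Nearest to Ngp, again without the members, were Tmsb15b2 (0.636), Serpinf1 (0.723), Tmsb15b1 (0.822), Tbc1d10c and Cldn1. Among the members themselves, Ltf was nearest to Ngp (0.894) and Mpo to Elane (1.67). The 5 nearest non-members of Ngp were at low counts, with 0 to 28 reads in cord monocytes, and none exceeded 5 TPM in APCs, against 157 TPM for Ngp. With 3 libraries, likeness over 2 differences is a description only.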

How the data were processed

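RNA of 3 sorted populations was sequenced as 1 pooled library each, with 50-base paired-end reads. The authors estimated expression with Salmon 0.14.1 (per the labels) on GENCODE vM22, and deposited TPM and estimated counts per gene. TPM as deposited is scaled by the authors to effective length and to the library's sum, and the estimated counts are unscaled. The deposited effective lengths, in bases, are averages over a gene's transcripts. Symbols and positions came from GENCODE M21 on GRCm38 (the labels give mm10), and 22221 of the 22238 common genes had a symbol. Promoters came from RefSeq on GRCm38.p6, with all 10 members matched.

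The study called genes with GFold. Its definition of a fold change was followed here in new code, with another limit of expression: 3 rescaled TPM, where the study's limit of 2 on the log2 TPM scale is 4 TPM, which was an alternative. Estimated counts were rounded to whole reads, 1 was added, and gamma posteriors of both libraries gave the log2 ratio, scaled by median-of-ratios size factors over all 3 libraries. A gene was called where percentile 1 or 99 passed a 2-fold change, with over 3 rescaled TPM in at least 1 library. With 1 library per population there is no p-value. Reads are not corrected for length, and an alternative divides them by effective length. A count of 0 allows up to 3 reads. Intervals cover counting error only, since 1 library per population gives no spread between libraries. They also treat reads as independent molecules, which PCR copies are not.

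The members and lists were chosen with earlier results of these data known. The genes that could be named were the 10 members, the called and the 2 most abundant genes of the further granule, inhibitor and regulator lists, all of the chitinase-like family, the nearest coding neighbours and, for Elane and Ngp, the 5 genes with the smallest Euclidean distance over both log2 fold changes, members left out. Prss57, Bpi, Ctsc, Olfm4, Itgb2l, Cebpa and the single marker genes were chosen after their values were seen. The alternatives were TPM thresholds of 4 or none, total reads or edgeR TMM factors, reads per effective length, libraries assumed to vary with a coefficient of 0.2 or 0.4, a plain 2-fold change, 0.5 reads added, and TPM with a pseudocount of 1 or 0.1. The tools were edgeR 4.0.16 in R 4.3.3, and scipy 1.17.1, numpy 2.4.6, matplotlib 3.10.9 and pandas 2.3.3 in Python 3.11.15.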

Additional observations from a re-analysis of the deposited data

How the results depend on the processing

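No paired analysis was possible because each population is 1 library. Of 110 recomputed member values in each comparison, 102, 96 and 107 stayed on their side of the call, 8, 10 and 3 lost it, 0, 4 and 0 gained it, and 0 reversed. In spinal cord against bone marrow monocytes, all 10 members stayed lower in every alternative but the assumed spread, where 8 were called with a coefficient of variation of 0.2 and 4 (Elane, Mpo, Ctsg and Camp) with 0.4. In APCs against spinal cord monocytes, 3 were called lower and 2 higher in the main setting. A coefficient of 0.2 left 1 lower (Prtn3) and 2 higher (Ltf and Ngp), and 0.4 left 0 lower and 0 higher. The assumed spread widens the interval by construction. Camp was called higher in this step by a plain 2-fold change and on TPM with either pseudocount, and Ms4a3 lower without a TPM threshold. In APCs against bone marrow monocytes, Camp was not called with either spread, nor Chil3 with 0.4. Total reads as the scaling shifted the median log2 ratio of all genes by -0.18 in the first comparison and -0.14 in the third, and 1239 genes were then called higher and 1394 lower in the first, against 1386 and 1073. Over all genes, calls in cord against marrow monocytes numbered 2623 higher and 1178 lower without a TPM threshold, 918 and 454 with a spread of 0.2, 630 and 225 with 0.4, and 1315 and 1890 on TPM with a pseudocount of 1 (1391 and 2137 with 0.1). In APCs against cord monocytes, where 188 and 165 were called, the same alternatives gave 385 and 292, 85 and 35, 43 and 14, and 274 and 528 (351 and 617). There a plain 2-fold change gave 326 and 302, and reads divided by effective length gave 232 and 320. In APCs against marrow monocytes, with 1426 and 1199, they gave 2870 and 1333, 979 and 503, 725 and 231, and 1315 and 2433 (1381 and 2682). As deposited, TPM summed to 553 and 55.4 over the azurophil members in bone marrow and spinal cord monocytes, and to 22008 and 7995 over the specific members. On the rescaled TPM used elsewhere, the specific members without Chil3 summed to 1323, 184 and 292. A TPM threshold of 4 ended the second-step call of Elane. Low reads limit Ctsg, Elane and Ms4a3 in APCs, with 8, 13 and 5 reads.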
